A study of Mus musculus with 24 samples.

Results

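Pim1, Pim2, Pim3, Plk2 and Plk3 are genes for protein kinases whose RNA can be induced by stimulation, and they were chosen by symbol as the inducible members of the Pim and polo-like kinase families. All 5 were found among the 15737 genes of the deposited read table, each on 1 row, and all 5 were among the 12936 genes tested after low counts were filtered. Their RNA was followed in basophils grown from the bone marrow of TTP-KO mice, which lack tristetraprolin (TTP, an RNA-binding protein encoded by Zfp36), and of wild-type (WT) mice. TTP-KO and WT cells were handled alike: marrow was kept for 7 days in interleukin-3 (IL-3) at 0.3 ng/mL, and from day 6 also in 150 µM s4U (4-thiouridine, a label for newly made RNA) and 1 µg/mL of IgE that recognises TNP. CD49b+ cells were then enriched with magnetic beads, given the antigen TNP-OVA at 10 ng/mL together with s4U for 1.5 h, and washed. The 8 groups are TTP-KO and WT cells at 0, 1, 2 and 4 h after the wash, with 3 libraries each, 24 in all, made from 3' ends of polyadenylated RNA. The study asks how loss of TTP alters mRNA stability in stimulated basophils. The labels give neither the age, sex or strain of the mice nor whether a group's libraries are from different mice or cultures, so the spread that p-values measure here may be technical. All cells had been through IgE, antigen and s4U, so no unstimulated state was measured, and 0 h is the end of stimulation.

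Pim kinases are serine/threonine kinases that need no activation step, so that their amount is set mainly by how much RNA and protein is made and kept. IL-3 and related cytokines induce Pim genes through JAK kinases and STAT5, and the kinases favour survival and growth by acting on proteins such as the death factor Bad. Plk2 and Plk3 are polo-like kinases known as early response and stress genes, unlike Plk1, which drives mitosis. TTP binds AU-rich stretches in the 3' untranslated region (3' UTR) of an mRNA and recruits enzymes that shorten its poly(A) tail, and Plk3 mRNA has been described as a TTP target in mouse fibroblasts.

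The letters TTP recognises were looked for first, since they are the feature by which a transcript could be bound by the missing protein. In DNA letters, TTP's 7-letter core is TATTTAT and its preferred 9-letter site is TTATTTATT, and the shorter ATTTA is the general AU-rich pentamer, contained in both. Only the RNA strand was searched and overlapping matches were counted. For every gene, the coding transcript with the longest annotated 3' UTR was taken, also for the shares over all genes. Which transcripts the basophils express was not tested. The 3' UTR annotated for Pim1 is 1365 bases long and holds 4 overlapping copies of the 7-letter core in 1 run, 3 of which extend to the 9-letter site. Plk3 has the shortest 3' UTR of the 5, with 332 bases, and it holds 3 cores, 2 of them within 9-letter sites. Plk2 has 2 cores and 1 such site in 620 bases. Pim3 has 2 cores and 0 of the longer sites in 964 bases. Pim2 has 0 cores and 0 longer sites in 915 bases, and its AU-rich letters are 2 pentamers near the 3' end. Among the 15392 genes of the table with an annotated 3' UTR, of median length 1163 bases, 30.5% held the 7-letter core and 8.34% the 9-letter site. The windows of 25 bases around the matches, from GENCODE M21 transcripts of mouse build GRCm38, are given with the core, or for Pim2 the pentamer, in capitals.
Pim1: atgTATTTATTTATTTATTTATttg
Plk3 site 1: agggggcatTATTTATggaccactt
Plk3 site 2: gaccactttTATTTATtaacagaca
Plk3 site 3: acagacattTATTTATtgggatgtg
Plk2 site 1: taaacttttTATTTATtacagcccc
Plk2 site 2: caagagcagTATTTATtatcaagat
Pim3 site 1: acggtctctTATTTATggtgtgatc
Pim3 site 2: tgctggggcTATTTATtgtttaatt
Pim2 site 1: tgcctggattATTTAaaaagccatg
Pim2 site 2: gtggaaacctATTTAataaataatg
A match is a description of the letters and not a measured binding site. The run in Pim1 starts 949 bases after the stop codon, and the 3 cores of Plk3 start at bases 235, 252 and 270.

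**Figure D1:**
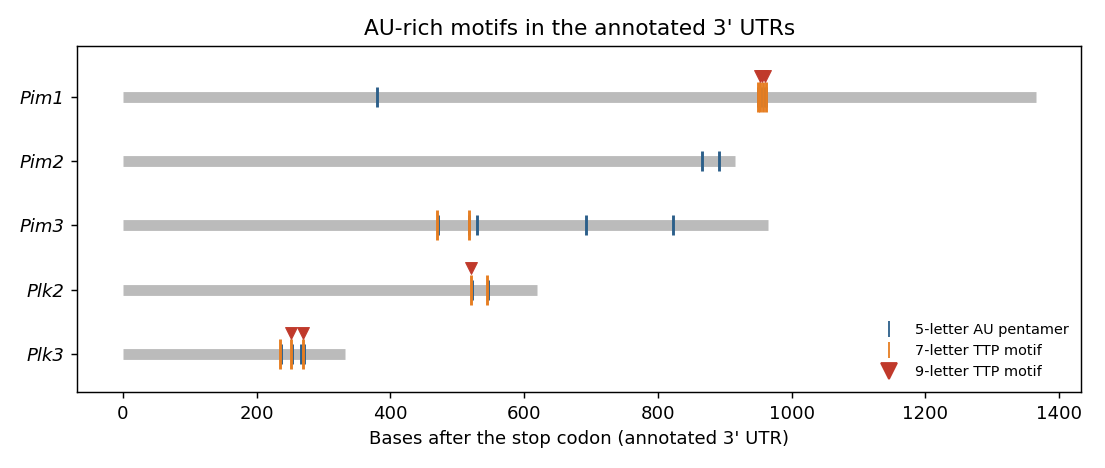
AU-rich motifs in the annotated 3' UTR of each gene, drawn to scale as bases after the stop codon (horizontal axis), with 1 grey bar for each gene. Blue ticks mark pentamers, orange ticks 7-letter cores and red triangles 9-letter sites. The 7-letter cores of Pim1 lie in 1 cluster, those of Plk3 lie close together in a 3' UTR of 332 bases, and Pim2 has none.

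Levels are given as TMM-scaled CPM, a gene's reads relative to the total of its library, adjusted on the assumption that most genes do not change. Libraries held 8839260 to 25372890 reads. The smallest were TTP-KO 4 h B with 8839260 reads and TTP-KO 4 h C with 10878380. Results at 4 h are therefore also given without these 2 libraries where that changes them, an alternative chosen after seeing the data. It leaves 1 TTP-KO library at 4 h, A, so only effect sizes are given for it. Actb took 4.10% to 4.37% of reads in TTP-KO and 4.41% to 4.96% in WT at 0 h, 4.32% to 5.58% in TTP-KO and 5.62% to 6.49% in WT at 1 h, 4.88% to 6.11% in TTP-KO and 5.60% to 6.86% in WT at 2 h, and 4.15% to 5.92% in TTP-KO and 6.62% to 6.86% in WT at 4 h. TTP-KO libraries thus lay below WT libraries at 0, 1 and 4 h and overlapped them at 2 h, and the part of this in the results was not tested. Zfp36 itself had 157.8 to 210.0 CPM in TTP-KO and 219 to 269 CPM in WT at 0 h, 36.0 to 58.5 CPM in TTP-KO and 104 to 147 CPM in WT at 1 h, 27.1 to 51.1 CPM in TTP-KO and 73.3 to 78.8 CPM in WT at 2 h, and 22.4 to 62.1 CPM in TTP-KO and 58.4 to 78.2 CPM in WT at 4 h. Its difference at 0 h did not pass (log2 change -0.36 ± 0.235 SE, edgeR adjusted p = 0.796). Zfp36 was lower in TTP-KO at 1 h (log2 change -1.45 ± 0.24 SE, edgeR adjusted p = 0.000116). The 2 h difference of -0.92 ± 0.24 did not pass (edgeR adjusted p = 0.0652), but passed with scaling by total reads (0.0442), without the filter on low counts (0.00108) and without TTP-KO 2 h C (0.018). The 4 h difference of -0.87 ± 0.24 passed (edgeR adjusted p = 0.0422), but not with DESeq2 (0.164), RLE scaling (0.0742), scaling by total reads (0.0708) or the compared groups alone (0.442), nor without TTP-KO 4 h A (0.216) or C (0.243) or WT 4 h B (0.0744) or C (0.139). Tags from the 3' end do not check the deleted part of the gene. The 10 basophil markers summed to 29790 to 44660 CPM in all 24 libraries, and none of them was at 0 in all libraries of a group. Their sum fell with time. At 0 h it was 42310 to 44020 CPM in TTP-KO and 42870 to 44190 CPM in WT. At 4 h it was 31230 to 32690 CPM in TTP-KO and 29790 to 32640 CPM in WT. By then 5 of the 10 were called lower than at 0 h in each genotype. Of all 12936 genes tested, 1372 were called lower in TTP-KO and 1290 in WT in that comparison. Between genotypes, Ms4a2 was lower in TTP-KO at 2 h and Hdc higher at 4 h. The part of this in the results was not tested.

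The 20 monocyte and macrophage markers moved with genotype. Their summed level was 2910 to 2972 CPM in TTP-KO and 1402 to 1555 CPM in WT at 0 h, 2578 to 2840 CPM in TTP-KO and 1101 to 1329 CPM in WT at 1 h, 2020 to 2387 CPM in TTP-KO and 957 to 1047 CPM in WT at 2 h, and 1496 to 1906 CPM in TTP-KO and 873 to 931 CPM in WT at 4 h. Of the 20, 9 were called higher in TTP-KO at 0 h, 7 at 1 h, 8 at 2 h and 7 at 4 h, and none was called lower. Of all genes tested, 0.526% were called at 0 h, 0.502% at 1 h, 0.518% at 2 h and 1.82% at 4 h. Among those never called, Adgre1 had a log2 change of 0.050 at 0 h. Ccr2 (-0.22) and Ly6c2 (-0.35) leaned lower in TTP-KO at 0 h. No macrophage marker was at 0 in all libraries of a group. Mast cell markers summed to 121 to 166 CPM in TTP-KO and 173 to 293 CPM in WT over all times. Of these only Tpsb2 was called between genotypes, lower in TTP-KO at 0 h and 4 h. Neutrophil markers summed to 3561 to 3852 CPM in TTP-KO and 4120 to 4558 CPM in WT at 0 h. At 1 h the sum was 3328 to 4240 CPM in TTP-KO and 3303 to 3970 CPM in WT. At 2 h it was 3009 to 3860 CPM in TTP-KO and 2583 to 3416 CPM in WT. At 4 h it was 3298 to 3431 CPM in TTP-KO and 2382 to 2630 CPM in WT. Only S100a8 and S100a9 among them were called between genotypes, both higher in TTP-KO at 4 h. Over all times eosinophil markers summed to 152 to 276 CPM in TTP-KO and 155 to 253 CPM in WT. NK and T cell markers summed to at most 7.94 CPM in TTP-KO and 7.91 CPM in WT. The part of these other cells in the differences between TTP-KO and WT given for Plk3, Pim1 and Pim3 was not tested, and in bulk RNA fewer cells of a type and less RNA per cell cannot be told apart.

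Plk3 RNA was higher in TTP-KO than in WT basophils at the end of stimulation and 1 h later, and it fell steeply after antigen removal in both genotypes. At 0 h Plk3 had 2402, 2249 and 2246 CPM in TTP-KO libraries, against 1221, 1317 and 1431 CPM in WT libraries. Every TTP-KO library lay above every WT library, and the log2 change was 0.80 ± 0.14 (SE), which is 1.74-fold (edgeR quasi-likelihood test with Benjamini-Hochberg adjustment over all genes tested, adjusted p = 0.000256). At 1 h it had 1146, 1273 and 1373 CPM in TTP-KO libraries, against 726.8, 643.8 and 695.2 CPM in WT libraries. The groups were again apart, by 0.88 ± 0.14 on the log2 scale, or 1.84-fold (edgeR adjusted p = 3.63e-05). At 2 h it had 396.7, 446.1 and 357.2 CPM in TTP-KO libraries, against 248.3, 297.3 and 304.9 CPM in WT libraries. The groups did not overlap at 2 h either, but the difference of 0.50 ± 0.14 missed the threshold (edgeR adjusted p = 0.0872). It passed with DESeq2 (0.0327), without the filter on low counts (0.00649) and without TTP-KO 2 h C (0.0494). At 4 h it had 221.1, 142.5 and 153.6 CPM in TTP-KO libraries, against 170.8, 255.4 and 162.9 CPM in WT libraries. These ranges overlapped, and the difference was -0.19 ± 0.14 (edgeR adjusted p = 0.653), with the opposite sign, 0.16, without TTP-KO 4 h B and C, and 0.054 without WT 4 h B. For reading these separations, 13.2% of all genes tested had TTP-KO and WT libraries that did not overlap at 0 h, 12.1% at 1 h, 11.5% at 2 h and 13.9% at 4 h.

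After the wash Plk3 fell at every time in both genotypes. In TTP-KO cells the log2 change from 0 h was -0.86 ± 0.14 at 1 h, -2.52 ± 0.14 at 2 h and -3.74 ± 0.15 at 4 h (edgeR adjusted p = 2.4e-05, 6.83e-19 and 2.86e-25). In WT cells it was -0.94 ± 0.14, -2.22 ± 0.14 and -2.75 ± 0.14 (edgeR adjusted p = 4.23e-06, 3.86e-17 and 9.46e-21). Ordered by mean level, the groups ran from TTP-KO 0 h (2299 ± 89 CPM, SD, n = 3) through WT 0 h (1323 ± 105), TTP-KO 1 h (1264 ± 114), WT 1 h (689 ± 42), TTP-KO 2 h (400.0 ± 44.5), WT 2 h (283.5 ± 30.7) and WT 4 h (196 ± 51) to TTP-KO 4 h (172 ± 42.5). Libraries of WT 0 h and TTP-KO 1 h overlapped, as did those of WT 2 h with WT 4 h and of WT 4 h with TTP-KO 4 h, and the other neighbours in this order were apart. The mean of TTP-KO cells 1 h after the wash thus stood beside that of WT cells at 0 h. For neighbours of different times in such an order, here and below, the share of all genes apart was not computed. In the annotation used here Plk3 overlaps Tctex1d4 on the opposite strand, and whether reads were counted by strand is not given in the sources used here.

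Pim1 RNA was higher in TTP-KO than in WT basophils at 0 h and rose less than in WT by 2 h. Pim1 is the founding kinase of its family and a classical STAT5 target. At 0 h it had 813.9, 750.8 and 904.5 CPM in TTP-KO libraries, against 499, 594.8 and 638 CPM in WT libraries. The groups did not overlap, and the log2 change was 0.51 ± 0.11, or 1.43-fold (edgeR adjusted p = 0.00735). This call was lost without TTP-KO 0 h C (0.44, adjusted p = 0.124) and without WT 0 h A (0.42, adjusted p = 0.169). At 1 h Pim1 had 803.4, 753.8 and 646.9 CPM in TTP-KO libraries, against 914.5, 765.2 and 830.1 CPM in WT libraries, and the ranges overlapped. At 2 h it had 1112, 1195 and 1084 CPM in TTP-KO libraries, against 1449, 1273 and 1362 CPM in WT libraries. Here every TTP-KO library lay below every WT library, but the difference of -0.27 ± 0.11 did not pass (edgeR adjusted p = 0.506). Of all genes tested, 13.2% had TTP-KO and WT libraries apart at 0 h and 11.5% at 2 h. At 4 h it had 940.4, 848.1 and 959.4 CPM in TTP-KO libraries, against 1090, 987.5 and 925.8 CPM in WT libraries, which overlapped.

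In TTP-KO cells Pim1 rose at 2 h alone, by 0.46 ± 0.11 on the log2 scale (edgeR adjusted p = 0.0029), while the change from 0 h was -0.16 ± 0.11 at 1 h and 0.15 ± 0.11 at 4 h (adjusted p = 0.572 and 0.356). The 4 h value became 0.52 (adjusted p = 0.000243) when libraries were scaled by total reads only. In WT cells Pim1 rose at all 3 times, by 0.54 ± 0.11 at 1 h, 1.24 ± 0.11 at 2 h and 0.79 ± 0.11 at 4 h (edgeR adjusted p = 0.00151, 4.66e-12 and 1.73e-07). The highest of the 8 groups was WT 2 h, with 1361 ± 88 CPM (SD, n = 3), apart from the next, TTP-KO 2 h, with 1130 ± 58 CPM. The lowest was WT 0 h, with 577 ± 71 CPM, apart from the next, TTP-KO 1 h, with 735 ± 80.0 CPM. The 6 groups from TTP-KO 2 h down to TTP-KO 1 h overlapped each with its neighbour. Gm26885 is annotated antisense to Pim1, so reads of the 2 could not be told apart unless they were counted by strand.

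Pim3, a Pim kinase that acts much like Pim1 on survival and protein synthesis, did not differ beyond its spread at 0 h but was higher in TTP-KO cells 1 h after the wash. At 0 h it had 443, 539 and 506.5 CPM in TTP-KO libraries, against 502.2, 505.7 and 460.6 CPM in WT libraries, with a log2 change of 0.019 ± 0.13. At 1 h it had 486.8, 428.3 and 524 CPM in TTP-KO libraries, against 322.2, 303.9 and 353.7 CPM in WT libraries. The groups were apart by 0.55 ± 0.13, or 1.47-fold (edgeR adjusted p = 0.0313). The call was lost with scaling by total reads (0.51, adjusted p = 0.0569), without TTP-KO 1 h A (0.117) or C (0.201), and without WT 1 h A (0.117) or B (0.177). At 2 h it had 221.5, 192.9 and 165.1 CPM in TTP-KO libraries, against 149.5, 180.6 and 185.2 CPM in WT libraries, which overlapped. At 4 h it had 270.6, 349.6 and 296.7 CPM in TTP-KO libraries, against 470.2, 379.3 and 364.3 CPM in WT libraries. By then every TTP-KO library was below every WT library, and the difference of -0.41 ± 0.13 did not pass (edgeR adjusted p = 0.128). Of all genes tested, 12.1% had TTP-KO and WT libraries apart at 1 h and 13.9% at 4 h.

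Both genotypes had their lowest Pim3 level at 2 h. In TTP-KO cells the log2 change from 0 h was -0.049 ± 0.13 at 1 h, -1.36 ± 0.14 at 2 h and -0.70 ± 0.13 at 4 h, and the last 2 passed (edgeR adjusted p = 1.08e-10 and 7.14e-05). Scaled by total reads only, the 4 h value was -0.33 (adjusted p = 0.0662). In WT cells it was -0.58 ± 0.13 at 1 h and -1.51 ± 0.14 at 2 h, which passed (edgeR adjusted p = 0.00594 and 5.03e-12), and -0.27 ± 0.13 at 4 h, which did not (0.169). The WT 1 h call was lost without WT 1 h B (-0.53, adjusted p = 0.0504). The mean at 4 h was 306 ± 40.3 CPM in TTP-KO cells and 405 ± 57 CPM in WT cells, and at 2 h it had been 193 ± 28 CPM in TTP-KO cells and 172 ± 19 CPM in WT cells (SD, n = 3); this step was not tested. Ordered by mean level, TTP-KO 0 h, WT 0 h, TTP-KO 1 h and WT 4 h overlapped each with the next, as did WT 1 h with TTP-KO 4 h and TTP-KO 2 h with WT 2 h.

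**Figure D2:**
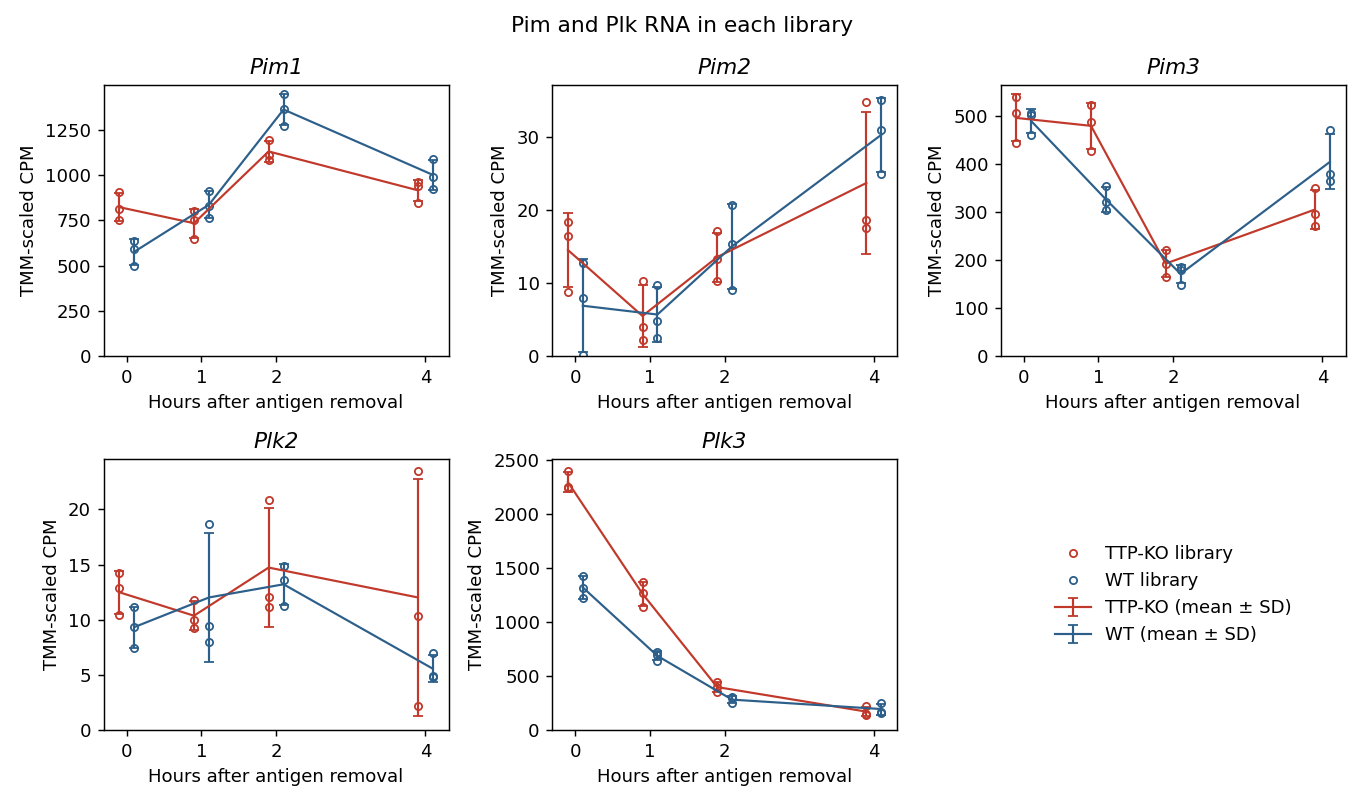
TMM-scaled CPM (vertical axis, from 0, with its own scale in each panel) of the 5 genes against hours after antigen removal, with TTP-KO in red left of WT in blue. Open circles are single libraries, and lines join group means with SD bars (n = 3 libraries). Plk3 starts at 2246 to 2402 CPM in TTP-KO and 1221 to 1431 CPM in WT and falls in both, Pim1 has its highest means at 2 h, and Pim3 is lowest at 2 h.

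Pim2 and Plk2 had between 3 and 668 reads in a library, and no difference between TTP-KO and WT passed for either at any time. Pim2, the Pim kinase best known from lymphocytes, had 8.76, 16.53 and 18.42 CPM in TTP-KO libraries at 0 h, against 7.947, 12.73 and 0.154 CPM in WT libraries. WT 0 h C held 3 reads of the gene, and the log2 change of 1.07 ± 0.67 did not pass (edgeR adjusted p = 0.777). At 4 h Pim2 had 34.88, 18.69 and 17.64 CPM in TTP-KO libraries, against 30.93, 35.06 and 25 CPM in WT libraries, which overlapped. The change from 0 to 4 h was 0.71 ± 0.66 in TTP-KO cells (edgeR adjusted p = 0.516) and 2.13 ± 0.69 in WT cells, where it passed (0.0243). The WT call was lost without WT 0 h C (1.55, adjusted p = 0.101), without WT 4 h B (2.02, 0.0509) and when only the groups compared were fitted (0.0925). The difference between these changes, -1.43 ± 0.94, did not pass (edgeR adjusted p = 0.759). At 1 h Pim2 ranged over 2.24 to 10.4 CPM in TTP-KO and 2.52 to 9.82 CPM in WT, and at 2 h over 10.4 to 17.1 CPM in TTP-KO and 9.13 to 20.7 CPM in WT. In the order of its means every neighbouring pair of groups overlapped.

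Plk2, a polo-like kinase known as a p53 target and, in neurons, as an activity-induced gene, stayed between 2.23 and 23.5 CPM in all 24 libraries. At 0 h it had 10.41, 14.24 and 12.84 CPM in TTP-KO libraries, against 11.18, 7.449 and 9.392 CPM in WT libraries. At 4 h it had 10.37, 2.227 and 23.49 CPM in TTP-KO libraries, from 190, 23 and 297 reads, against 4.862, 4.877 and 6.981 CPM in WT libraries. The TTP-KO libraries thus spread on both sides of the WT ones, and the log2 change of 1.11 ± 0.61 did not pass (edgeR adjusted p = 0.482). Its range was 9.30 to 11.8 CPM in TTP-KO and 7.99 to 18.7 CPM in WT at 1 h, and 11.2 to 20.9 CPM in TTP-KO and 11.2 to 14.9 CPM in WT at 2 h. None of its changes from 0 h passed in TTP-KO or WT cells. The SE of Plk2 and Pim2 was 0.60 to 0.69 on the log2 scale in the comparisons of 2 groups, and their libraries differed widely within some groups, so a difference of the size called for Plk3 could not be told from this spread.

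Counted over the 5 genes, TTP-KO against WT gave 2 called at 0 h (Pim1 and Plk3, both higher in TTP-KO), against 0.526% of all genes tested. At 1 h 2 were called (Pim3 and Plk3, both higher in TTP-KO), against 0.502% of all genes. At 2 h 0 were called, against 0.518% of all genes, and at 4 h 0 were called, against 1.82%. At an unadjusted p under 0.05 the edgeR test also had Pim1 and Plk3 at 2 h and Pim3 at 4 h. Of the 12936 genes tested, 943 were under that p at 2 h and 1529 at 4 h. With DESeq2 and adjustment Plk3 passed at 2 h. The smallest of the unadjusted values was 0.000661 for Plk3 at 2 h. Plk3, with 2 of the 9-letter sites in its short 3' UTR, was the member called at both 0 and 1 h. Pim1, with 3 such sites, was called at 0 h alone, Pim3 with 0 of them at 1 h, and Plk2 with 1 of them at no time. Whether the sites have a part in these calls was not tested, and the wide SE of Plk2 leaves its missing call uninformative.

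**Figure D3:**
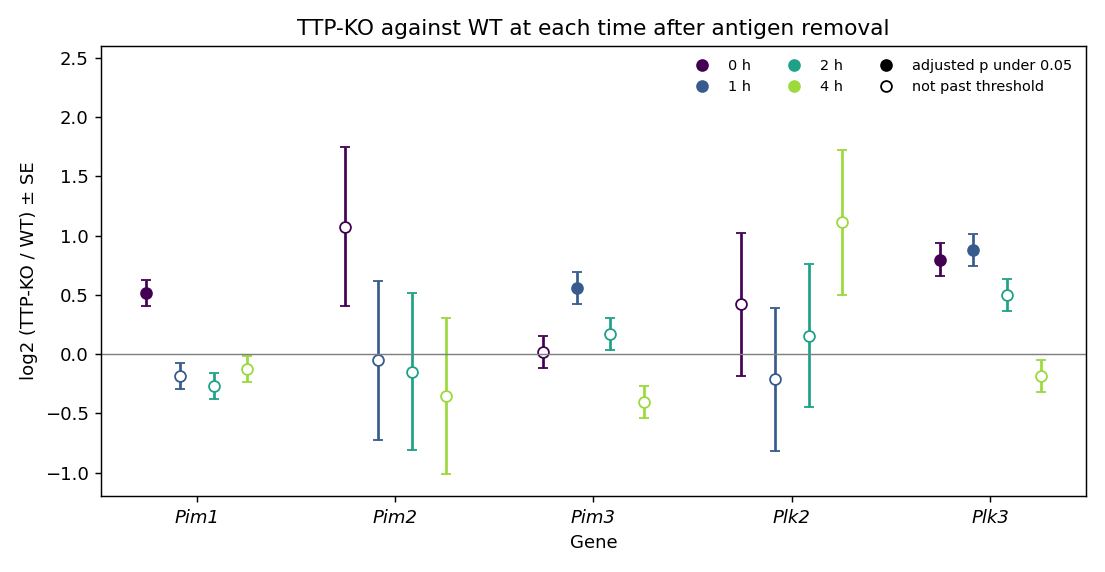
Log2 ratio of TTP-KO to WT (vertical axis, with SE bars) for each gene (horizontal axis) at 0, 1, 2 and 4 h after antigen removal, from the edgeR fit. Filled circles passed an adjusted p of 0.05 and open circles did not. Plk3 at 0 and 1 h, Pim1 at 0 h and Pim3 at 1 h are filled and above 0, and the bars of Pim2 and Plk2 are the longest.

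Against 0 h, which all later times of a genotype share, TTP-KO cells had 1 gene called at 1 h (Plk3 lower; 2.74% of all genes were called), 3 at 2 h (Pim1 higher, Pim3 and Plk3 lower; 9.89% of all genes) and 2 at 4 h (Pim3 and Plk3 lower; 18.1% of all genes). WT cells had 3 called at 1 h (Pim1 higher, Pim3 and Plk3 lower; 2.33% of all genes), 3 at 2 h (Pim1 higher, Pim3 and Plk3 lower; 10% of all genes) and 3 at 4 h (Pim1 and Pim2 higher, Plk3 lower; 16.7% of all genes). Scaling by total reads alone moved the median log2 change of all genes from 0 to 4 h to 0.455 in TTP-KO cells and 0.384 in WT cells, against 0.0843 and 0.0591 with TMM scaling, and from 0 to 2 h to 0.229 and 0.264.

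**Figure D4:**
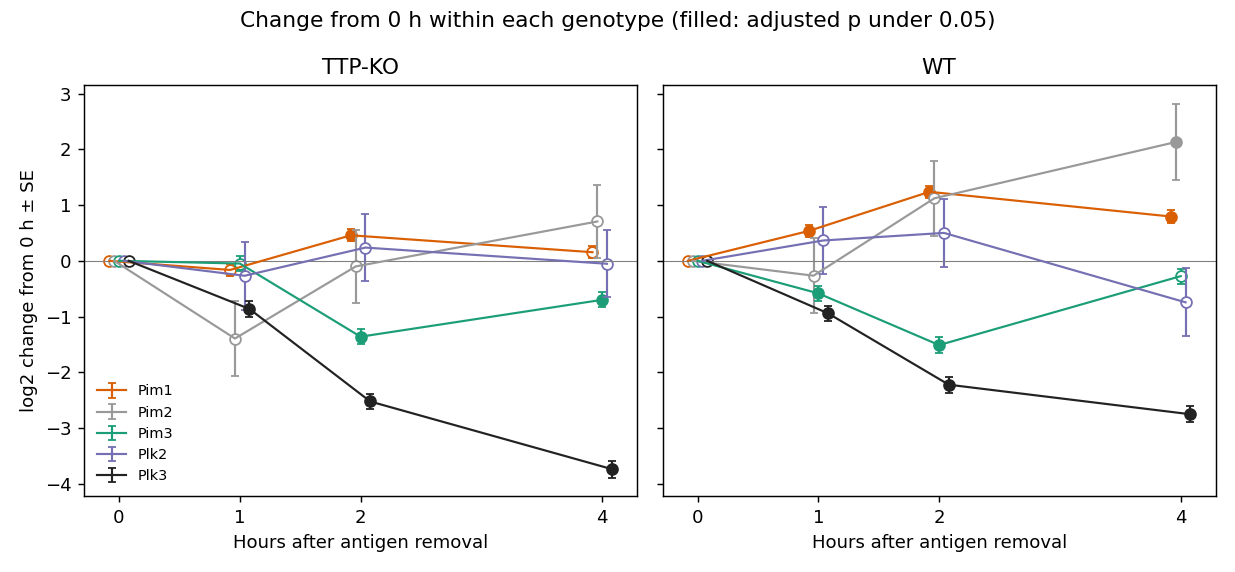
Log2 change from 0 h (vertical axis, with SE bars) at 1, 2 and 4 h after antigen removal (horizontal axis) in TTP-KO cells, left, and WT cells, right. Lines are genes, and filled circles passed an adjusted p of 0.05. Plk3 falls to -3.74 in TTP-KO and -2.75 in WT at 4 h, Pim1 reaches 0.46 in TTP-KO and 1.24 in WT at 2 h, and Pim3 dips at 2 h in both.

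Whether the course differed between genotypes was tested as a difference of changes from 0 h, TTP-KO minus WT. At 1 h 0 of the 5 genes passed, against 0.0618% of all genes; at 2 h 1 passed (Pim1, lower; 0.0773% of all genes) and at 4 h 1 passed (Plk3, lower; 0.193% of all genes). For Pim1 the difference was -0.70 ± 0.16 at 1 h, -0.78 ± 0.16 at 2 h and -0.64 ± 0.16 at 4 h (edgeR adjusted p of 0.0609, 0.0149 and 0.0656), and at 1 h and 4 h it passed with DESeq2 (0.00098 and 0.007) and without the filter on low counts (0.0207 and 0.0239), and at 1 h also with scaling by total reads (0.0288). The 2 h call was lost without TTP-KO 0 h C (-0.71, adjusted p = 0.0945), TTP-KO 2 h C (-0.75, 0.0535), WT 0 h A (-0.69, 0.109) or WT 2 h A (-0.73, 0.0662). For Plk3 the difference was 0.078 ± 0.19 at 1 h, -0.30 ± 0.19 at 2 h and -0.98 ± 0.19 at 4 h (edgeR adjusted p = 1, 0.894 and 0.0129). Plk3 thus fell further by 4 h in TTP-KO cells, which had started higher. Its 4 h call was lost without WT 4 h B (-0.74, adjusted p = 0.0635) and when only the groups compared were fitted (-0.99, 0.0524). Without TTP-KO 4 h B and C its 4 h difference was -0.63. For Pim3 the difference was 0.54 ± 0.19 at 1 h and did not pass (edgeR adjusted p = 1), so that the genotype difference at 1 h was not shown to differ from that at 0 h.

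Genes around the kinases were read from 5 lists. Of the 16 genes of the IL-3, JAK and STAT5 pathway, which induces Pim genes, 1 was higher and 1 lower in TTP-KO at 0 h, 1 was higher at 1 h, 0 were called at 2 h, and 2 were higher and 2 lower at 4 h, with median log2 changes of -0.10, -0.17, -0.036 and 0.046, against 0, -0.013, 0.00032 and 0 over all genes. Osm, which encodes the cytokine oncostatin M, had 5666 ± 108 CPM in TTP-KO and 2793 ± 357 CPM in WT at 0 h (SD, n = 3), a log2 change of 1.02 ± 0.11 (edgeR adjusted p = 8.99e-09), and was also higher at 1 h (0.82) and 4 h (0.44). Ccnd2, the cyclin D2 gene, was lower in TTP-KO at 0 h, at 1603 ± 77 CPM against 2181 ± 87 CPM in WT (-0.44 ± 0.09, edgeR adjusted p = 0.00516, and 0.0574 without TTP-KO 0 h C). At 4 h Socs2, a feedback inhibitor of cytokine signalling, was higher by 1.03 ± 0.27 and Jak2, the kinase bound to the IL-3 receptor, lower by -0.56 ± 0.15 (edgeR adjusted p = 0.0277 and 0.0366). Without TTP-KO 4 h B and C, which leaves 1 TTP-KO library, the 4 h log2 changes were 0.36 for Osm, 0.84 for Socs2 and -0.40 for Jak2. The 4 h calls of Osm, Socs2 and Jak2 were lost when only the groups compared were fitted (edgeR adjusted p = 0.148, 0.148 and 0.308). Each was also lost without certain single libraries. These were TTP-KO 4 h C (0.135) and WT 4 h B (0.11) or C (0.135) for Osm. They were TTP-KO 4 h B (0.179) and WT 4 h A (0.0598) or C (0.192) for Socs2, and TTP-KO 4 h B (0.342) and WT 4 h A (0.283) for Jak2. The call of Jak2 was lost as well with RLE scaling (0.0561) and with scaling by total reads (0.0633).

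Of 16 Pim substrates and effectors, 0 were called at 0 h, 1 was higher in TTP-KO at 1 h, 0 were called at 2 h and 1 was lower at 4 h, with median log2 changes of 0.054, 0.00074, 0.055 and -0.079. The gene higher at 1 h was Cdkn1a, which encodes the cell cycle inhibitor p21, with 1010 ± 28 CPM in TTP-KO and 738 ± 23.5 CPM in WT (log2 change 0.45 ± 0.10, edgeR adjusted p = 0.0116). That call was lost without TTP-KO 1 h B (0.0777) or C (0.0604) and without WT 1 h B (0.0579) or C (0.116). The gene lower at 4 h was Foxo3, a transcription factor that Pim kinases hold in check, with 40.4 ± 6.6 CPM in TTP-KO and 77.9 ± 10.7 CPM in WT (-0.95 ± 0.22, edgeR adjusted p = 0.0113). Without TTP-KO 4 h B and C its log2 change was -0.77. Of 12 p53 and stress partners of Plk2 and Plk3, Cdkn1a at 1 h was the one call in the 4 comparisons of TTP-KO with WT, and the medians were -0.024, -0.0072, -0.051 and -0.18. Of 16 other stimulus-inducible kinases and pseudokinases, 0 were called at 0, 1 and 2 h and 1 was higher in TTP-KO at 4 h, with medians of 0.037, 0.11, 0.072 and 0.26. That gene was Trib1, a pseudokinase that marks proteins for degradation, with 73.0 ± 10.1 CPM in TTP-KO and 46.0 ± 3.1 CPM in WT (0.66 ± 0.15, edgeR adjusted p = 0.00668). Without TTP-KO 4 h B and C its log2 change was 0.49. Without TTP-KO 4 h B alone the calls of Foxo3 (0.125) and Trib1 (0.0811) were lost, and that of Foxo3 also without WT 4 h A (0.061) or C (0.0539). With the compared groups alone, neither Foxo3 (0.141) nor Trib1 (0.295) passed. Of the other polo-like kinases and their mitotic partners, 10 of 11 were in the table, and 0 were called between TTP-KO and WT at any time, with medians of 0.11, -0.14, -0.25 and -0.15. Those with the highest mean level were Cdc20, an activator of the anaphase-promoting complex, at 29.8 ± 5.2 CPM in TTP-KO and 27.3 ± 8.0 CPM in WT at 0 h, and Tpx2, a spindle assembly factor, at 35.4 ± 6.5 CPM in TTP-KO and 34.1 ± 4.3 CPM in WT.

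The course of each gene over the 24 libraries was set beside that of 7079 genes with a mean of at least 10 CPM, as a description in which libraries share genotype, time and depth. The 3 genes most like Plk3 in log2 CPM were Clec4e (Pearson's r = 0.974), Kctd12 (0.97) and Egr3 (0.967). Those most like Pim3 were Dglucy (0.907), Ifrd1 (0.858) and Inpp4b (0.815), and those most like Pim1 were Kdm4b (0.824), Fli1 (0.816) and Kif1c (0.809). For Pim2 they were Tbl3 (0.772), Fbxo31 (0.763) and Rabl6 (0.76), and for Plk2 Clpx (0.76), Sap30l (0.73) and Atosb (0.679). Among the kinases themselves Pim1 ran opposite to Pim3 (r = -0.809) and to Plk3 (-0.625), and Pim3 and Plk3 had r = 0.584.

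Promoters were searched on both strands, from 250 bases before to 50 after the start, in RefSeq sequences of build GRCm38.p6, where all 5 genes matched and Pim1 has 2 entries. The STAT motif TTCNNNGAA was in none of the windows of the 5 genes and in 8.3% of the 32851 windows in all. The core GGAAA, bound by NFAT, was in the downstream window of Pim1 and in those of Plk2 and Plk3, and in 61.3% of all windows. An NF-kB motif was in the window of Pim3 and in 8.46% of all. The CREB core TGACG was in the windows of Plk2 and Plk3 and in 20.8% of all. The last motif is shared by the 2 polo-like kinase genes, so both windows are shown with it in capitals on either strand. In Plk2, at chr13:110394794-110395093 on the plus strand, 2 of its 3 matches overlap on opposite strands. Plk3 lies at chr4:117133914-117134213 on the minus strand.
Plk3 promoter: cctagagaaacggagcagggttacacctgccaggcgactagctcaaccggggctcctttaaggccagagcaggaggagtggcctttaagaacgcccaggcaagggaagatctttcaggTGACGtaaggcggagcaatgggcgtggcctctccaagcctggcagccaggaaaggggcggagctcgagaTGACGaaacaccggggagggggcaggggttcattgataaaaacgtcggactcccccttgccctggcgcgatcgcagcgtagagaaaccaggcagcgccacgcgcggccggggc
Plk2 promoter: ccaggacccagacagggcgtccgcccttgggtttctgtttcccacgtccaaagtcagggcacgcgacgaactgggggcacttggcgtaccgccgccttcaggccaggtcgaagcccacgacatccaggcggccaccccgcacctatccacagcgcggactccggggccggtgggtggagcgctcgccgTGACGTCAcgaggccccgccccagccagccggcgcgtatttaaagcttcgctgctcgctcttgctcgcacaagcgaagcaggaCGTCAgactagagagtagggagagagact
These letters are a description of the windows and say nothing of which factors bind there in basophils.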

How the data were processed

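Libraries were made from alkylated RNA (10 mM iodoacetamide, 15 min, 50 °C) with a QuantSeq 3' V2 FWD kit, per the labels' protocols. Build GRCm39, STAR 2.7.10a, cutadapt 3.5 and SAMtools are listed in the submitters' processing notes. The authors deposited expected counts, without normalization, and 12.8% of the values were not whole. Annotation and counting mode: not given in the sources used here. Columns carry letters A to C and labels numbers 1 to 3, so columns were tied to groups only. The other 144 columns of per-sample values, on labelled RNA, were left out, and half-lives are not analysed here.

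Counts were rounded and tested in R 4.3.3 with edgeR 4.0.16 (TMM, filterByExpr, quasi-likelihood), in 1 fit of 8 group means over 24 libraries. Calls needed p under 0.05 after Benjamini-Hochberg adjustment over all 12936 genes in each of 13 comparisons. Scripts were tested on simulated data. Alternatives were RLE or library-size scaling, no filter, DESeq2 1.42.0, the compared groups alone, a replicate block and leaving out each library. Over 24 pairs of libraries within groups, chi-square per degree of freedom was 29.6 to 77.8, so none repeated another. 3' UTRs came from GENCODE M21 and promoters from RefSeq, neither of the build the submitters name.

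The members and lists were chosen with earlier results of these data known. Named genes were the 5 members, Zfp36, up to 4 genes a list that passed between TTP-KO and WT (otherwise the 2 with the highest mean), and the 3 most similar genes per member.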

Additional observations from a re-analysis of the deposited data

Results flagged for a closer look

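For Pim1 the change from 0 to 2 h differed between the genotypes, by -0.78 ± 0.16 on the log2 scale, TTP-KO minus WT (edgeR interaction contrast, adjusted p = 0.0149), a call lost without TTP-KO 0 h C (0.0945), TTP-KO 2 h C (0.0535), WT 0 h A (0.109) or WT 2 h A (0.0662). For Plk3 the change from 0 to 4 h differed by -0.98 ± 0.19 (edgeR adjusted p = 0.0129). Libraries A, B and C had 221.1, 142.5 and 153.6 CPM of Plk3 in TTP-KO and 170.8, 255.4 and 162.9 CPM in WT at 4 h. The difference was -0.63 without TTP-KO 4 h B and C, the smallest libraries, which leaves 1 TTP-KO library at 4 h. The call was lost without WT 4 h B (-0.74, edgeR adjusted p = 0.0635) and with the compared groups alone (-0.99, 0.0524).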

How the results depend on the processing

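Of 65 results on the 5 genes, 21 were called, 14 of them under every alternative run, and none of the 21 changed sign. The 28 changes of sign were in results not called, none of them called under the alternative. With scaling by total reads, Pim2 in TTP-KO at 2 h against 0 h became 0.11, Pim3 in WT at 4 h 0.049 and Plk2 in TTP-KO at 4 h 0.32. Without TTP-KO 4 h B and C (chosen after seeing the data), TTP-KO against WT at 4 h became 0.19 for Pim2 and 0.16 for Plk3, with 130 genes called in all and 58 in the difference from 0 to 4 h. Leaving out 1 library at a time, TTP-KO against WT ranged over -0.88 to 0.58 (1 h) and -0.41 to 0.15 (2 h) for Pim2, -0.044 to 0.095 (0 h) for Pim3, -0.44 to 0.25 (1 h) and -0.18 to 0.32 (2 h) for Plk2, and -0.39 to 0.054 (4 h) for Plk3. Against 0 h, TTP-KO ranged over -0.36 to 0.10 (Pim2, 2 h), -0.12 to 0.027 (Pim3, 1 h), -0.10 to 0.40 (Plk2, 2 h) and -0.98 to 0.45 (Plk2, 4 h), and WT over -0.90 to 0.51 (Pim2, 1 h) and -0.10 to 0.59 (Plk2, 1 h). The 4 h difference of Plk2 ranged over -0.23 to 1.19.

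Genes called in TTP-KO against WT at 0, 1, 2 and 4 h numbered 68, 65, 67 and 236, and 222, 199, 234 and 490 with DESeq2. DESeq2 also called 658 in TTP-KO and 601 in WT at 1 h against 0 h (354 and 302 with edgeR), and 90, 90 and 184 for the differences from 0 to 1, 2 and 4 h (8, 10 and 25). Without the filter, TTP-KO against WT gave 123, 108 and 127 at 0, 1 and 2 h, and the differences 21, 20 and 89. With the compared groups alone, it gave 116, 41 and 47 at 0, 2 and 4 h, and 16 for the 4 h difference. Leaving out 1 library gave 137 to 431 at 4 h, and 5 to 11, 7 to 50 and 8 to 114 for the differences at 1, 2 and 4 h. The cause was not tested.

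Between TTP-KO and WT libraries of the same letter and hour, deviations from group means correlated at -0.057 to 0.051, which showed no pairing of the genotypes by letter. Whether a letter pairs libraries of the same genotype across hours was not tested. The main fit treated all libraries as independent. With a replicate block on the letter, 75, 76, 72 and 240 genes were called between TTP-KO and WT, and 8, 10 and 26 for the differences, and Zfp36 at 2 h passed (edgeR adjusted p = 0.0378). Of Pim2 and Plk2, libraries held 3 to 668 reads.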
